A study of Mus musculus with 32 samples.

Results

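The Polycomb complex subunits described here are 10 genes chosen by their function, 5 of Polycomb repressive complex 2 (PRC2; Ezh1, Ezh2, Eed, Suz12 and Jarid2) and 5 of Polycomb repressive complex 1 (PRC1; Ring1, Rnf2, Bmi1, Pcgf1 and Kdm2b), out of 55385 genes listed in each RNA library. The choice rests on complex membership and not on a measured value, and the target genes of the complexes were not included. Total RNA was sequenced from mouse preimplantation embryos in 8 groups of 2 libraries, 16 libraries in all. Embryos of the zygote, the early 2-cell and the late 2-cell stage were exposed to 10 µM A-485, an inhibitor of the acetyltransferases CBP and p300, from 4 to 20 hours post insemination (hpi), or to the vehicle DMSO. In a separate experiment, late 2-cell embryos were exposed to 50 nM trichostatin A (TSA), an inhibitor of histone deacetylases, from 8 to 28 hpi, or to DMSO. Embryos of all groups were wild type and came from in vitro fertilization of B6D2F1/J oocytes with B6D2F1/J sperm, from mice aged 6 to 8 weeks, so they differ only in stage and agent by their labels. A-485 was present for a window that ended at 20 hpi, and its late 2-cell group is therefore a group taken after a transient exposure. The labels do not say how stages and treatments were spread over library preparations, so stage and any such preparation cannot be told apart. Titles of the zygote libraries and of the late 2-cell A-485 libraries and their controls differ in style from those of the other RNA libraries. The labels do not say what this difference means. Each comparison between stages or between the experiments crosses it, whereas each treatment and its own DMSO group share a style.

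Polycomb proteins keep developmental genes silent. PRC2 methylates histone H3 on a lysine of its tail through the alternative catalytic subunits EZH2 and EZH1, with EED and SUZ12 as the core partners without which the enzyme does not work, and JARID2 as an accessory subunit that helps to recruit and activate it. PRC1 places ubiquitin on histone H2A through the E3 ligases RNF2 (also called RING1B) and RING1. The PCGF subunit paired with the ligase sets the type of PRC1: BMI1 (PCGF4) belongs to canonical complexes that can read the PRC2 mark through a CBX protein, whereas PCGF1 works with KDM2B, a protein that binds unmethylated CpG-rich DNA, in a variant complex with BCOR or BCORL1. In oocytes and early embryos these proteins and their RNAs are supplied maternally and are known for their part in H3K27me3-dependent imprinting.

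The start sites of 4 members are shown because the members differed in whether an ATAC-seq peak of open chromatin overlapped them, as described further on. Each sequence runs 5′ to 3′ on the gene's strand from 250 bases before to 50 bases after a RefSeq start (build GRCm38.p6), 300 bases in all. Capitals mark exact matches, on either strand, to the CCAAT box (CCAAT or ATTGG), the cAMP response element (TGACGTC or GACGTCA) or the GC box (GGGCGGG or CCCGCCC). None of these 3 motifs contains another, and in the sequences shown only GC box matches overlap each other.
Ezh2, chr6:47594981-47595280, minus strand, overlapped by a peak in all 4 lists: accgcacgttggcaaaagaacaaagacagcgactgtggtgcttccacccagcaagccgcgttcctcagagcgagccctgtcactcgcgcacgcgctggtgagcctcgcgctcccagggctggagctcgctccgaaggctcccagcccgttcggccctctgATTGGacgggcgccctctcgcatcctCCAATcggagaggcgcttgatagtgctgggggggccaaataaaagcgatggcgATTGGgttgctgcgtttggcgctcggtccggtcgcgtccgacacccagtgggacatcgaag
Jarid2, chr13:44730524-44730823, plus strand, overlapped by a peak only in early 2-cell DMSO embryos: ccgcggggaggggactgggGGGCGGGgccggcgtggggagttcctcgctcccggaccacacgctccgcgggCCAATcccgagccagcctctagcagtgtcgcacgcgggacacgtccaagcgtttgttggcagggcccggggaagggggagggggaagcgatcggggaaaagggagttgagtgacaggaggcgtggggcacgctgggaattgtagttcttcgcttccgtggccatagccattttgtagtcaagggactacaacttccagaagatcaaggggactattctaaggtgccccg
Kdm2b, chr5:122989050-122989349, minus strand, overlapped by a peak only in early 2-cell A-485 embryos: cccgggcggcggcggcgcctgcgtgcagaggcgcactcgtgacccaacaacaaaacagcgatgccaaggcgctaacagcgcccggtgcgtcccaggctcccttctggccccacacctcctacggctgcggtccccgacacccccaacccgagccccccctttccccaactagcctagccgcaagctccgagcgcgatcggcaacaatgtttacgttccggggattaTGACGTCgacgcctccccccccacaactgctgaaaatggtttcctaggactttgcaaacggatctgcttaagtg
Bmi1, chr2:18676768-18677067, plus strand, overlapped by a peak in no list: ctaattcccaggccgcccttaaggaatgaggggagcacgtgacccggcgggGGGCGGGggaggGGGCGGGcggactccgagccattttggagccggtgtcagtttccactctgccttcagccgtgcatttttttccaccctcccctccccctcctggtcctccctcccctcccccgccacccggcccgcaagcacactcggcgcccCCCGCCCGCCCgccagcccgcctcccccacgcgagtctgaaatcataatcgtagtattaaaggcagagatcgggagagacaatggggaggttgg
The 4 sequences held 31, 24, 28 and 23 CpG dinucleotides, in the order printed, where the median of 32851 RefSeq promoters of the same length was 7. The Ezh2 sequence held 3 matches to the CCAAT box, Jarid2 held 1 and a GC box, Kdm2b held 1 match to the cAMP response element, and Bmi1 held 4 GC boxes. For Jarid2 and Kdm2b the RefSeq start overlapped by a peak was printed. Their other RefSeq starts, overlapped by no peak, held 23 CpG for Jarid2 and 18, 47 and 49 for Kdm2b. The Kdm2b starts with 47 and 49 CpG each held 4 GC boxes and 1 CCAAT box. The CCAAT letters occur in 37.4% of all promoters, with 3 or more matches in 3.37%, TGACGTC in 3.21% and GGGCGGG in 25.6%. A match is only a run of letters and names no bound factor. RefSeq promoters were matched for 9 of the 10 members.

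The libraries held 13206163 to 32585987 expected counts each, with a median of 22730517.5, and the pair of late 2-cell A-485 libraries was the shallowest. Over 13 mitochondrially encoded genes the share of counts was 0.795% to 1.06% in zygotes, 2.24% to 2.71% in the early 2-cell groups and in all DMSO late 2-cell libraries, 3.66% to 3.72% after TSA and 5.35% to 5.43% in late 2-cell A-485 embryos. In bulk samples, fewer cells of a type and less RNA per cell cannot be told apart. The 9 oocyte markers (among them Zp3 and Gdf9) were all at 1 FPKM or more in every library, where FPKM is fragments per kilobase of effective length and per mapped fragments of the library, in RSEM's usual scaling. The 8 markers of the 2-cell embryo (among them Zscan4d and Zfp352) summed to 20.7 to 26.0 FPKM in DMSO zygotes and to 599 to 683 FPKM in early 2-cell DMSO embryos. The 10 cumulus cell markers summed to 0.9 to 6.64 FPKM and the 6 sperm markers to 1.25 to 18.9 FPKM, the latter highest in zygotes. Nothing in the labels ties the 2 libraries of a group to separate cultures, so p-values measure only the spread between these libraries, which may be technical.

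In DMSO zygotes 9 of the 10 members were expressed, and their levels ran from 28.4 ± 1.96 FPKM (SD, n = 2) for Ezh1 to 1087 ± 60.7 FPKM for Bmi1. Among 11687 genes with a mean of at least 1 FPKM in this group, Bmi1 ranked 64, Ezh2 116, Kdm2b 214, Eed 243, Suz12 362, Pcgf1 418, Rnf2 948, Jarid2 1372 and Ezh1 3487. The subunits were thus spread over the upper part of the expressed genes rather than standing at a common level. Ring1 was under 1 FPKM in all 16 libraries, with 0 to 28 counts each. Rnf2 therefore supplied at least 99.49% of the summed FPKM of the 2 ligase genes in every library. Ring1 passed the count filter in each comparison but with log2 fold changes whose standard error was 0.97 or more, it passed no test, and its folds are not described. All 10 members entered each test, and posterior standard deviations of their counts, which measure how uncertainly fragments were assigned, were at most 0.011 of the count for the 9 expressed members.

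**Figure D1:**
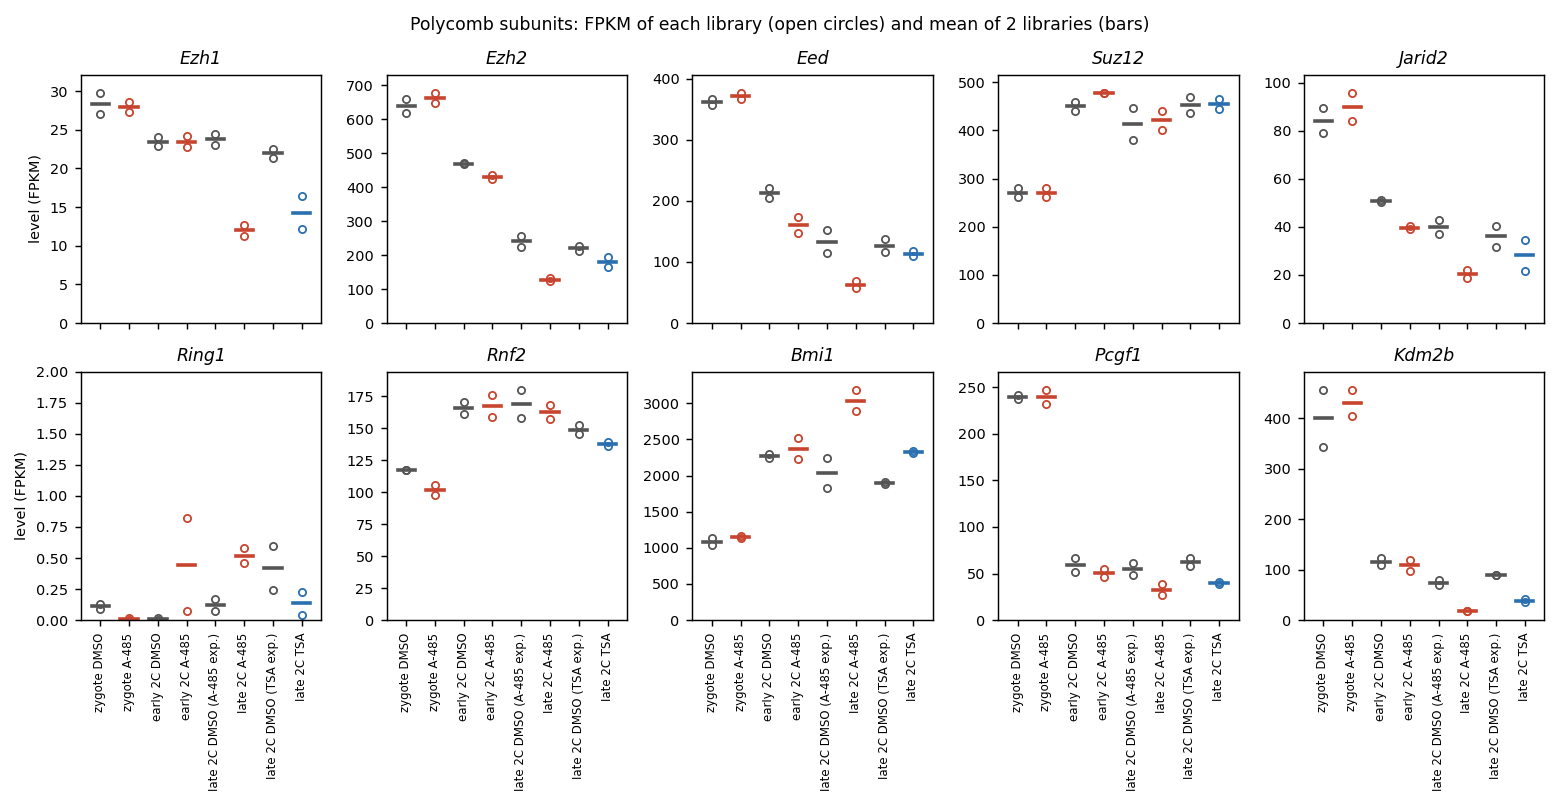
FPKM (y axis, linear, from 0, with its own scale for each gene) of the 10 Polycomb members in each of the 16 RNA libraries, by stage and treatment (x axis). Points are libraries and short lines are group means. Ezh2, Eed, Kdm2b and Pcgf1 are highest in zygotes, Bmi1 and Suz12 are lowest there, and Ring1 stays under 1 FPKM throughout.

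The first comparison asked how the subunit RNAs changed in vehicle-treated embryos from the zygote to the early 2-cell stage. Bmi1 rose, and Pcgf1 and Kdm2b fell: 1 of 10 members was called higher, against 11.2% of 20106 genes tested, and 2 were called lower, against 14.9%. A call required an adjusted p under 0.05 by edgeR's quasi-likelihood test, at least 2-fold change and, in either group, a mean FPKM of 1 or more. Here and below, the shares are over all genes tested. These include genes under 1 FPKM in both groups, which could not be called. Among genes at the members' levels the shares would be higher if such genes were left out, and they were not counted. The median log2 fold change was -0.47 over the members, 0.08 over all genes tested and -0.12 over genes with at least 1 FPKM.

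Bmi1 stood at 1044 and 1130 FPKM in the DMSO zygote libraries and at 2249 and 2292 FPKM in the early 2-cell ones (log2 fold change 1.14, SE 0.0585, adjusted p = 4.15e-09, edgeR). Pcgf1 stood at 241 and 237 FPKM in zygotes and at 66.4 and 51.9 FPKM at early 2-cell (log2 fold change -2.12, SE 0.115, adjusted p = 6.75e-09, edgeR). Kdm2b stood at 343 and 456 FPKM, then at 109 and 123 FPKM (log2 fold change -1.29, SE 0.0679, adjusted p = 5.07e-09, edgeR). The ranges of zygotes and early 2-cell embryos did not overlap for any of these 3 genes, and the 2 partners of the variant PRC1 moved together, away from Bmi1. With 2 libraries a group, ranges can lie apart without an effect. The share of all genes with ranges apart was not counted in this or any later comparison. The ratio of Bmi1 to Pcgf1 in FPKM accordingly went from between 4.33 and 4.76 in DMSO zygotes to between 33.9 and 44.2 in early 2-cell DMSO embryos.

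The other PRC1 ligase and the PRC2 subunits moved by less than 2-fold. Suz12 (log2 fold change 0.82) and Rnf2 (0.66) rose, and Eed (-0.73), Jarid2 (-0.49) and Ezh2 (-0.45) fell with adjusted p under 0.05 in edgeR. Ezh1 differed by -0.21 (SE 0.0983, adjusted p = 0.105, edgeR), which did not pass. Suz12 went from 261 and 281 FPKM to 459 and 441 FPKM while its core partner Eed went from 356 and 367 FPKM to 204 and 220.2 FPKM, so the order of these 2 genes in level was exchanged between the stages. These directions are relative to a scaling in which the median gene with at least 1 FPKM differed by -0.12. Scaled to the mitochondrially encoded genes, that median was -1.45, 6 members were called lower, and Bmi1 (-0.19), Suz12 (-0.51) and Rnf2 (-0.67) had the opposite sign. That scaling called 1270 genes higher and 8196 lower, against 2257 and 3002.

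From the early to the late 2-cell stage in DMSO embryos, Kdm2b alone was called, lower, beside 8.92% of 20326 genes, and no member was called higher, beside 15.9%. Ezh2 fell by just under the fold required, from 471 and 468 FPKM to 257 and 225 FPKM (log2 fold change -0.997, SE 0.112, adjusted p = 1.9e-05, edgeR, 1.996-fold lower). Eed (-0.86) and Rnf2 (-0.30) also had adjusted p under 0.05, and Jarid2 (-0.31, adjusted p = 0.0602, edgeR), Suz12 (-0.22), Bmi1 (-0.14), Pcgf1 (-0.04) and Ezh1 (-0.02) did not. The median log2 fold change was -0.26 over the members, -0.02 over all genes tested and 0.03 over genes with at least 1 FPKM. The early 2-cell DMSO libraries serve in both stage comparisons. Without replicate 1 of the early 2-cell or of the late 2-cell DMSO libraries, Ezh2 was called too (-1.05 and -1.13) and the count of called members was 2.

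The Kdm2b fall at this step depended on the length used. It was 109 and 123 FPKM at early 2-cell and 78.7 and 70.5 FPKM at late 2-cell, 1.55-fold lower, whereas the test on counts gave a log2 fold change of -1.15 (SE 0.117, adjusted p = 8.29e-06, edgeR). The effective length that RSEM assigned to Kdm2b, a mean over its transcripts weighted by their abundance, was 2835 and 2560 bases in the early 2-cell DMSO libraries and 1893 and 1859 bases in the late 2-cell ones. With the effective length entered as an offset, an alternative chosen after seeing the data, the change was -0.65 and no longer reached the fold required. At the preceding step the effective length moved the other way, by a ratio of 1.3, and the Kdm2b fall was larger with the offset, at -1.70. Kdm2b overlaps Rnf34 on the opposite strand by 627 bases, and Gm43411 and Gm44574 on its own strand. The share of these neighbours in its values was not tested.

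Over both steps the PRC2 catalytic subunits came closer in level. The ratio of Ezh2 to Ezh1 in FPKM was 22.2 to 23.0 in DMSO zygotes, 19.5 to 20.6 at early 2-cell and 9.22 to 11.1 in the late 2-cell DMSO libraries of the A-485 experiment. Ezh1 itself was at 23.7 ± 0.948 FPKM (SD, n = 2) in those late 2-cell embryos and at 23.4 ± 0.820 FPKM at early 2-cell, so the ratio followed Ezh2. The FPKM of the 5 PRC2 members summed to between 1343 and 1428 in DMSO zygotes and to between 819 and 884 in the late 2-cell DMSO libraries of the A-485 experiment. That of the 5 PRC1 members, most of it Bmi1, was 1746 to 1941 in DMSO zygotes, 2585 to 2637 at early 2-cell and 2144 to 2535 at late 2-cell. The FPKM of all genes summed to 799722 and 812227 in the DMSO zygote libraries and to 1.28e+06 and 1.27e+06 in the early 2-cell ones. In the same late 2-cell DMSO libraries it summed to 1.29e+06 and 1.44e+06. The sums over members are not shares of these totals, so they do not show a change in share.

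**Figure D2:**
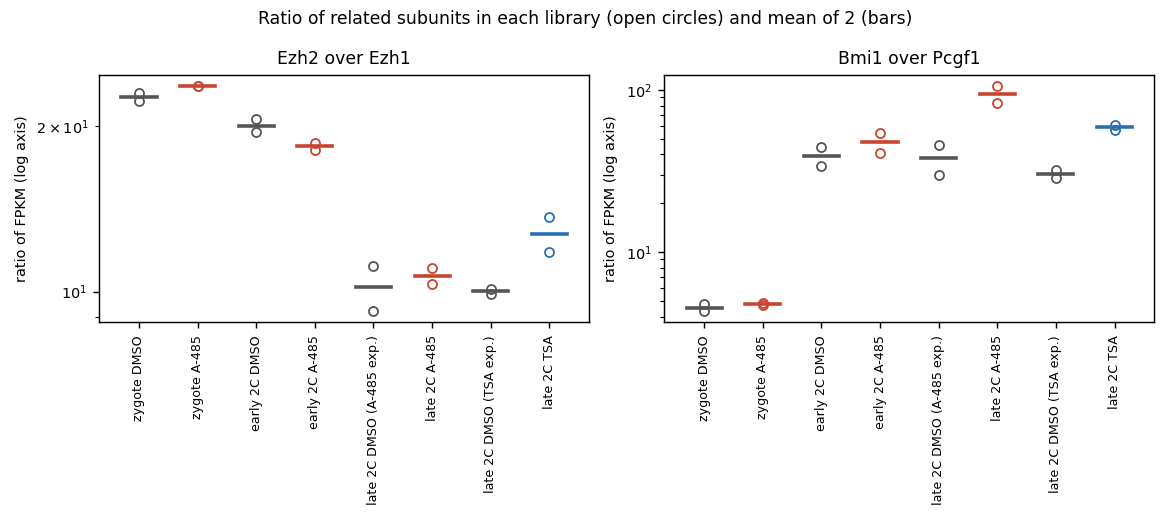
Ratio of Ezh2 to Ezh1 and of Bmi1 to Pcgf1 in FPKM (y axes, log scale) in each RNA library, by stage and treatment (x axis). Points are libraries. The Ezh2 to Ezh1 ratio falls from above 22 in DMSO zygotes to about 10 in late 2-cell DMSO embryos, and the Bmi1 to Pcgf1 ratio is highest in late 2-cell A-485 embryos, at 82.8 and 105.9.

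The late 2-cell DMSO groups of the 2 experiments show how far controls of the same stage and vehicle differ. No member was called in either direction in edgeR, beside 1.19% of 20647 genes called higher in the TSA experiment and 0.136% lower. At an unadjusted p under 0.05 edgeR gave 1 member, Pcgf1 (log2 fold change 0.37, SE 0.157, adjusted p = 0.329), and DESeq2 called 0. The 9 expressed members lay between -0.15 and 0.37. In the TSA experiment's DMSO libraries Ezh2 was at 212 and 228 FPKM, Eed at 115.5 and 138 FPKM and Kdm2b at 89.6 and 89.3 FPKM. Only the Kdm2b range of these 3 lay apart from that of the other control group. Among the other expressed members the ranges of Ezh1 and Rnf2 lay apart too, both lower in the TSA experiment. Ezh1 was at 21.4 and 22.5 FPKM beside 23.1 and 24.4 FPKM. Rnf2 was at 152.4 and 145.3 FPKM beside 157.8 and 179.7 FPKM.

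The next comparisons asked whether inhibition of CBP and p300 changed the subunit RNAs. In zygotes no difference passed a test. No member was called, beside 0.00548% of 18258 genes higher and 0.0657% lower, and 0 members had an unadjusted p under 0.05 in edgeR or a call in DESeq2. The 9 expressed members had log2 fold changes of -0.04 to 0.05 with standard errors of 0.0553 to 0.0808 and adjusted p of 0.997 or more in edgeR. Ezh2 was at 678 and 648 FPKM with A-485, beside 620 and 661 FPKM with DMSO. Kdm2b was at 404 and 456 FPKM, inside the range of its controls. Among the expressed members, FPKM ranges lay apart for Rnf2, lower with A-485, and for Eed and Bmi1, higher with it. Rnf2 was at 105.2 and 98.05 FPKM with A-485 and at 117.0 and 117.6 FPKM with DMSO. Its effective length was 2471 and 2524 bases with A-485 and 2317 and 2152 bases with DMSO. No effect is read from these ranges.

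At the early 2-cell stage no member was called either, although 7.9% of 20872 genes were called lower and 0.402% higher. Eed, Jarid2 and Suz12 had an unadjusted p under 0.05 in edgeR, and DESeq2 called 0 members. Eed was at 173 and 148 FPKM with A-485, below the 204 and 220.2 FPKM of its controls (log2 fold change -0.27, SE 0.0925, adjusted p = 0.0958, edgeR). Jarid2 was at 39.2 and 40.2 FPKM against 50.5 and 51.4 FPKM. The FPKM ranges of the treatments did not overlap for Ezh2, Eed and Jarid2, which were lower with A-485, and for Suz12, which was higher. With 2 libraries a group, ranges can lie apart without an effect. The share of all genes with ranges apart was not counted, so no effect is read from these ranges. The 2-cell embryo markers summed to only 17.7 to 19.0 FPKM in these A-485 embryos, and their part in these differences was not tested.

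At the late 2-cell stage 5 of the 10 members fell with A-485, Ezh1, Ezh2 and Jarid2 of PRC2 and Pcgf1 and Kdm2b of PRC1, and none was called higher. The background was 16.8% of 22822 genes called lower and 10.5% called higher. The median log2 fold change was -0.95 over the members, 0.28 over all genes tested and 0.02 over genes with at least 1 FPKM.

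Of the PRC2 catalytic subunits, Ezh1 stood at 12.7 and 11.3 FPKM with A-485 and at 23.1 and 24.4 FPKM with DMSO (log2 fold change -1.68, SE 0.173, adjusted p = 9.7e-06, edgeR). Ezh2 stood at 131 and 125 FPKM with A-485 and at 257 and 225 FPKM with DMSO (log2 fold change -1.01, SE 0.128, adjusted p = 5.5e-05, edgeR). The ratio of Ezh2 to Ezh1 was 10.3 to 11.1 with A-485, within the range of its controls. The accessory subunit Jarid2 went from 42.9 and 37.0 FPKM with DMSO to 18.6 and 21.9 FPKM (log2 fold change -1.11, SE 0.137, adjusted p = 4.7e-05, edgeR). For all 3 genes each A-485 library was below both DMSO libraries, a pattern whose share over all genes was not counted.

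The core partners Eed and Suz12 differed from each other. Eed fell by less than 2-fold in counts, from 114 and 153 FPKM to 68.9 and 56.6 FPKM (log2 fold change -0.88, SE 0.152, adjusted p = 0.00066, edgeR). Suz12 was at 400.0 and 441 FPKM with A-485 and at 447 and 379.9 FPKM with DMSO (log2 fold change -0.10, SE 0.0972, adjusted p = 0.424, edgeR), and the ranges overlapped. Suz12 was thus the PRC2 core gene with no detected difference, in libraries where the summed FPKM of the 5 PRC2 members went from 819 to 884 down to 631.5 to 656.

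In PRC1 the Kdm2b and Pcgf1 pair and Bmi1 again moved apart. Kdm2b went from 78.7 and 70.5 FPKM to 18.4 and 17.2 FPKM (log2 fold change -1.64, SE 0.149, adjusted p = 3.25e-06, edgeR). Pcgf1 went from 48.9 and 61.4 FPKM to 27.3 and 38.4 FPKM (log2 fold change -1.06, SE 0.242, adjusted p = 0.0044, edgeR). Bmi1 rose by less than 2-fold, from 2249 and 1832 FPKM to 2886 and 3183 FPKM (log2 fold change 0.40, SE 0.0823, adjusted p = 0.00245, edgeR). The ligase gene Rnf2 was at 168 and 157 FPKM, with ranges overlapping those of its controls (log2 fold change 0.10, SE 0.105, adjusted p = 0.484, edgeR). The Bmi1 to Pcgf1 ratio reached 82.8 to 105.9 with A-485 against 29.8 to 46.0 with DMSO.

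**Figure D3:**
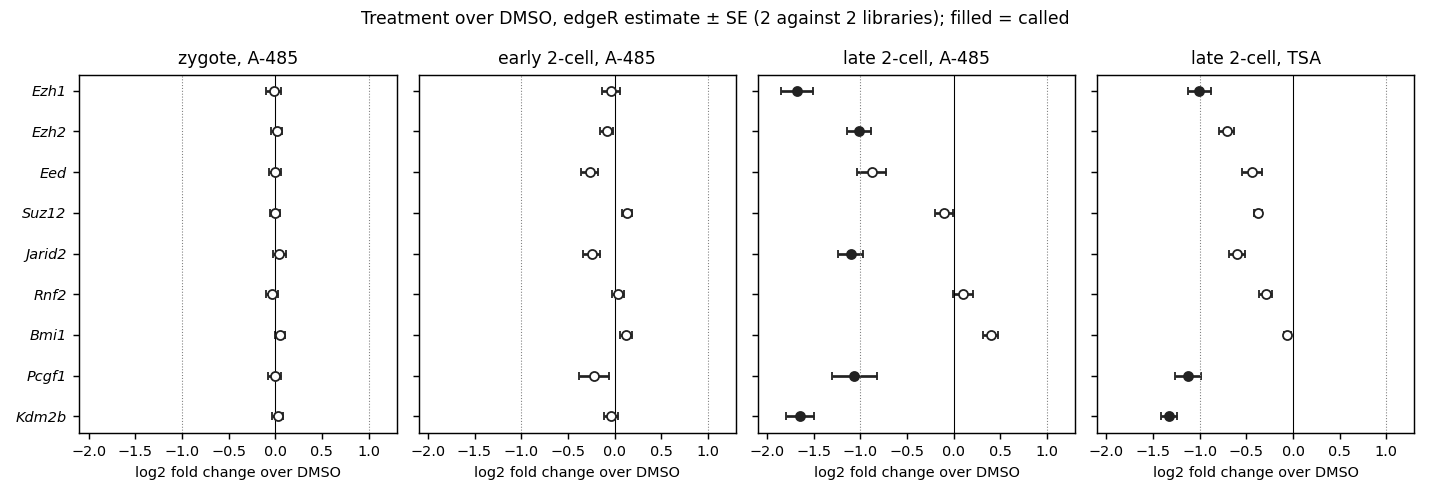
Log2 fold change (x axis) of the 9 expressed Polycomb members in 4 comparisons of treatment with DMSO, with bars of ± 1 standard error from edgeR; filled points passed all 3 criteria of a call. Zygotes and early 2-cell embryos hold no filled point, late 2-cell A-485 holds 5 and TSA holds 3, all to the left of 0.

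The calls at late 2-cell were not equally firm. Those of Ezh1 and Kdm2b stood under all 15 alternative settings, whereas those of Ezh2, Jarid2 and Pcgf1 lay near 2-fold. Ezh2 was not called with DESeq2 (-0.95), with RLE scaling (-0.95) or with all 16 libraries in one fit (-0.98). Without replicate 1 of the DMSO libraries 3 members were called, with Ezh2 at -0.84 and Jarid2 at -0.97, and without replicate 1 of the A-485 libraries 3 were called, with Ezh2 at -0.96 and Pcgf1 at -0.82. Without replicate 2 of the DMSO libraries Pcgf1 (-0.92) was not called. With library totals in place of TMM, where the median gene with at least 1 FPKM differed by 0.21 rather than 0.02, 2 members were called (Ezh1 -1.49, Kdm2b -1.45). Scaled to mitochondrially encoded genes, with a median of -0.96, 7 were called lower and Bmi1 (-0.58) and Rnf2 (-0.88) turned negative. That scaling called 1177 genes higher and 6874 lower, against 2406 and 3824.

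The late 2-cell A-485 libraries also stood apart in other ways. The 9 oocyte markers summed to 1421 to 1453 FPKM in them and to 775 to 831 FPKM in their controls, while the 8 markers of the 2-cell embryo summed to 79.6 to 86.1 FPKM against 325 to 337 FPKM. The 20 most abundant genes took 32.1% and 32.6% of their counts, against 19.0% and 20.1% in the controls. The members that fell with A-485 thus did so in libraries in which the oocyte markers were higher. The part of these features in the members' changes was not tested.

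Effective lengths moved with A-485 for several members. FPKM are also scaled to library totals, whereas the tested counts were scaled by TMM. For both reasons FPKM and counts gave different sizes of change. Kdm2b had effective lengths of 1893 and 1859 bases with DMSO and 2760 and 3016 bases with A-485, and its FPKM was 4.19-fold lower where counts gave 3.12-fold. Eed had 695 and 587 bases with DMSO and 769 and 914 bases with A-485, and the log2 ratio of its FPKM was -1.09 where counts gave -0.88. Ezh1 moved the opposite way, from 3856 and 3794 bases to 2235 and 3193 bases, with a log2 FPKM ratio of -0.98 where counts gave -1.68. With the effective length as an offset the called members numbered 5 as before, but with Eed (-1.28) in place of Pcgf1 (-0.94), and Kdm2b was at -2.27 and Ezh1 at -1.18.

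**Figure D4:**
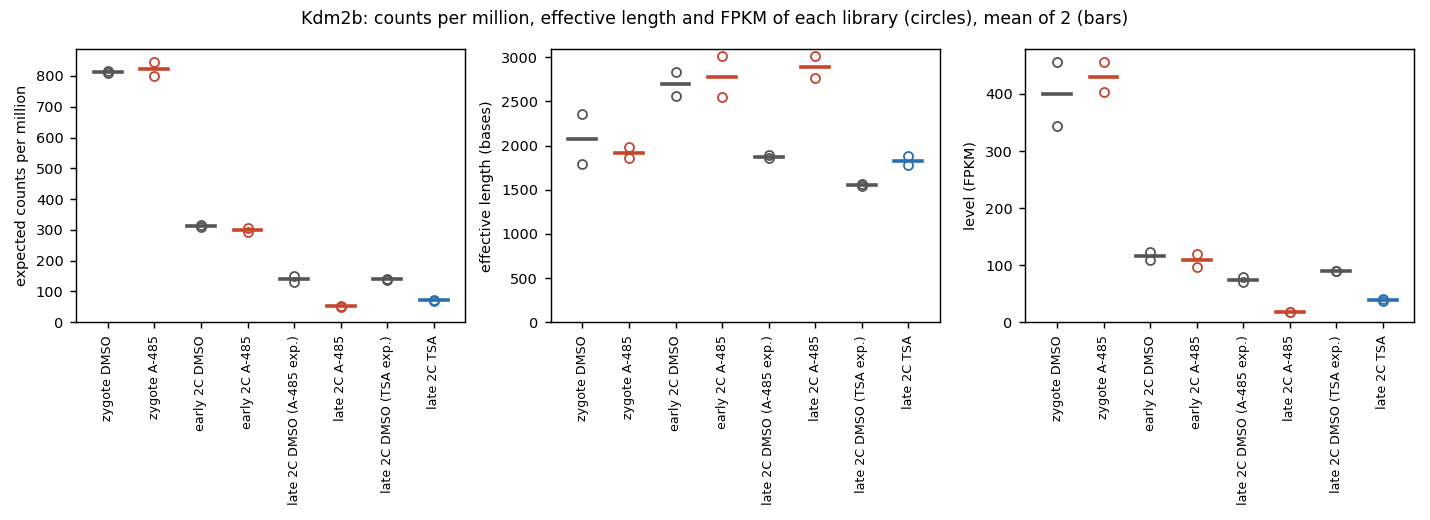
Depth-scaled counts (CPM), effective length in bases and FPKM of Kdm2b (y axes) in each RNA library, by stage and treatment (x axis); points are libraries. In late 2-cell A-485 embryos the effective length lies at 2760 and 3016 bases, above both controls, while the FPKM lies at 18.4 and 17.2, below them.

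Whether the A-485 effect itself differed between stages was tested as an interaction, called at an adjusted p under 0.05. Between zygotes and early 2-cell embryos no member differed in edgeR, beside 1% of 23002 genes higher and 4.65% lower; Suz12 alone had an unadjusted p under 0.05 (0.19, adjusted p = 0.244) and DESeq2 called 0. Between early and late 2-cell embryos 5 members had a more negative effect at late 2-cell, beside 9.9% of 25141 genes, and 1 had a more positive effect, beside 10.1%. The early 2-cell libraries serve in both tests.

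The differences of log2 fold change between late and early 2-cell were -1.56 for Ezh1 (SE 0.200, adjusted p = 1.7e-06), -1.52 for Kdm2b (SE 0.159, adjusted p = 7.6e-08), -0.85 for Ezh2 (SE 0.148, adjusted p = 0.00012), -0.78 for Jarid2 (SE 0.168, adjusted p = 0.00123) and -0.53 for Eed (SE 0.173, adjusted p = 0.0296) in edgeR. That of Bmi1 was 0.35 (SE 0.110, adjusted p = 0.0227, edgeR). The median gene with at least 1 FPKM had a difference of 0.22. The Pcgf1 difference of -0.76 (SE 0.296, adjusted p = 0.0755, edgeR) did not pass. The Bmi1 call was lost under 9 of 16 alternatives, and its sign turned with scaling to mitochondrially encoded genes.

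Single libraries decided some of these calls. Bmi1 was not called without replicate 1 (0.13) or 2 (0.38) of the early 2-cell DMSO libraries, replicate 2 of the early 2-cell A-485 libraries (0.23), or replicate 2 of the late 2-cell DMSO (0.0040) or A-485 (0.28) libraries. Eed was not called without replicate 1 of the early 2-cell A-485 (-0.54) or late 2-cell A-485 (-0.53) libraries. Pcgf1 was called without replicate 1 of the early 2-cell DMSO (-1.11) or late 2-cell DMSO (-1.06) libraries or replicate 2 of the late 2-cell A-485 ones (-1.10), and Suz12 without replicate 2 of the late 2-cell DMSO ones (-0.53). The differences of Ezh1, Ezh2, Jarid2 and Kdm2b were called under all 16 alternatives.

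TSA at the late 2-cell stage lowered Ezh1, Pcgf1 and Kdm2b by at least 2-fold and raised no member. The background was 13.9% of 23429 genes called lower and 13.8% called higher, so 3 of 10 and 0 of 10 stand beside nearly equal shares in both directions. The median log2 fold change was -0.66 over the members, 0.13 over all genes tested and -0.03 over genes with at least 1 FPKM.

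Kdm2b again showed the smallest p, from 89.6 and 89.3 FPKM with DMSO to 41.3 and 36.5 FPKM with TSA (log2 fold change -1.32, SE 0.0858, adjusted p = 4.9e-07, edgeR). Its partner Pcgf1 went from 58.5 and 67.1 FPKM to 40.7 and 38.5 FPKM (log2 fold change -1.12, SE 0.136, adjusted p = 6.1e-05, edgeR). Ezh1 went from 21.4 and 22.5 FPKM to 16.4 and 12.1 FPKM (log2 fold change -1.003, SE 0.121, adjusted p = 5.9e-05, edgeR). None of the 3 ranges overlapped with its controls, a pattern whose share over all genes was not counted.

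The remaining PRC2 genes fell by less than 2-fold in counts: Ezh2 by 0.71, Jarid2 by 0.60, Eed by 0.44 and Suz12 by 0.38 on the log2 scale, each with an adjusted p under 0.05 in edgeR. Rnf2 fell by 0.29 and Bmi1 differed by -0.06 (SE 0.0379, adjusted p = 0.215, edgeR). In FPKM, which is scaled to library totals, the picture shifts upward: Suz12 was at 445 and 464 FPKM with TSA and at 437 and 470.3 FPKM with DMSO, and Bmi1 was at 2316 and 2339 FPKM against 1880 and 1906 FPKM, with no overlap. With library totals in place of TMM no member was called, Kdm2b was at -0.97, Pcgf1 at -0.77 and Ezh1 at -0.65, Bmi1 (0.29) and Rnf2 (0.06) turned positive, and the median gene with at least 1 FPKM differed by 0.32 rather than -0.03. That setting called 4106 genes higher and 2385 lower in place of 3237 and 3247.

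The TSA calls lay close to the fold required. Ezh1 was not called without replicate 1 of the DMSO libraries (-0.996) or replicate 2 of the TSA libraries (-0.82), and Pcgf1 was not called without replicate 2 of the DMSO libraries (-0.998). Ezh1 was also not called with DESeq2 or RLE scaling (-0.999), and Pcgf1 was not called when the DMSO libraries of the A-485 experiment served as control (-0.67). With all 16 libraries in one fit Kdm2b alone was called. With the effective length as an offset Pcgf1 (-1.03) and Kdm2b (-1.57) were called. The oocyte markers summed to 755 to 790 FPKM with TSA and to 590 to 618 FPKM with DMSO, and the markers of the 2-cell embryo to 520 to 592 FPKM against 209.8 to 248 FPKM. Their part in the members' changes was not tested.

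The effects of the 2 agents at the late 2-cell stage are set side by side with the limit that doses, windows and experiments differ, so that agent and experiment cannot be told apart. Kdm2b differed by -1.64 with A-485 and -1.32 with TSA, Pcgf1 by -1.06 and -1.12, Ezh1 by -1.68 and -1.003, Ezh2 by -1.01 and -0.71. The test of the difference between the effects called 3 members with a less negative effect of TSA, beside 12.7% of 26554 genes, and 1 with a more negative effect, beside 4.59%. The differences were 0.79 for Ezh1 (SE 0.213, adjusted p = 0.0147), 0.62 for Jarid2 (SE 0.164, adjusted p = 0.0133), 0.55 for Eed (SE 0.184, adjusted p = 0.0496) and -0.35 for Bmi1 (SE 0.0984, adjusted p = 0.0189) in edgeR.

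These 4 calls did not hold when single libraries were left out. Without either DMSO library of the TSA experiment 0 members were called, without replicate 1 of the TSA libraries 1, and without the one or the other late 2-cell A-485 library 2. Kdm2b (0.43, SE 0.171, adjusted p = 0.101, edgeR), Ezh2 (0.41), Pcgf1 (0.05), Suz12 (-0.17) and Rnf2 (-0.29) did not pass this test, which does not show that they responded alike.

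The rest of the Polycomb machinery was followed as a list of 38 genes by function, 8 other PRC2 genes, 24 other PRC1 genes and 6 enzymes that oppose the complexes. From DMSO zygotes to early 2-cell embryos 5 were called higher and 1 lower, beside 11.2% and 14.9% of all genes, among them Bcor (log2 fold change 2.56), the partner of PCGF1, and Pcgf6 (-2.04), which defines another variant PRC1. Bcor therefore rose at the step at which Pcgf1 and Kdm2b fell, from 1.81 and 1.66 FPKM to 10.2 and 9.33 FPKM. From early to late 2-cell 6 were called higher and 6 lower, beside 15.9% and 8.92% of all genes, led by L3mbtl2 (2.91), Epop (-2.38) and Mtf2 (2.22), the last 2 being accessory subunits of PRC2.

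A-485 left the list without a call in zygotes, where 37 of the 38 were tested. At early 2-cell it lowered 5 of the 38, beside 7.9% of all genes, among them Bcor (log2 fold change -2.37, SE 0.143), Pcgf5 (-1.52, SE 0.250), Bcorl1 and L3mbtl2. Bcor was at 3.39 and 1.97 FPKM with A-485 and at 10.2 and 9.33 FPKM with DMSO. Bcor and Bcorl1, partners of PCGF1 in its variant PRC1, were thus lower at a stage at which Pcgf1 and Kdm2b were not called. This pair was singled out after its values were seen. Of the other PRC1 genes listed, Rybp averaged 209 FPKM with A-485 and 189.5 FPKM with DMSO, and Usp7 140 and 148.8 FPKM.

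At late 2-cell A-485 raised 6 of the 38 and lowered 12, beside the 10.5% and 16.8% of all genes. By role these were 1 higher and 4 lower of 8 other PRC2 genes, 5 higher and 7 lower of 24 other PRC1 genes, and 0 higher and 1 lower of the 6 opposing enzymes. The largest were Cbx8, a chromobox reader of canonical PRC1, from 0.37 and 0.35 FPKM to 5.87 and 5.35 FPKM (log2 fold change 4.06, SE 0.593), L3mbtl2, of a variant PRC1, from 44.2 and 55.95 FPKM to 3.55 and 8.53 FPKM (-3.43, SE 0.252), and Epop (3.02, SE 0.610). TSA raised 6 and lowered 9, beside 13.8% and 13.9% of all genes, and its largest changes were all upward.

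Under TSA, Epop went from 0.56 and 0.60 FPKM to 37.98 and 37.7 FPKM (log2 fold change 5.67, SE 0.162). Cbx8 went from 1.44 and 0.44 FPKM to 7.47 and 9.58 FPKM (3.74, SE 0.264). These genes were near or under 1 FPKM in the controls, so their folds carry more counting error than those of the members. Between the control groups of the experiments, Bcor was the gene of this list that was called, at 25.1 and 28.3 FPKM in the A-485 experiment and 8.69 and 6.45 FPKM in the TSA experiment (-1.88, SE 0.135). The median log2 fold change over the 38 genes was -0.26 with A-485 and -0.18 with TSA at late 2-cell.

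**Figure D5:**
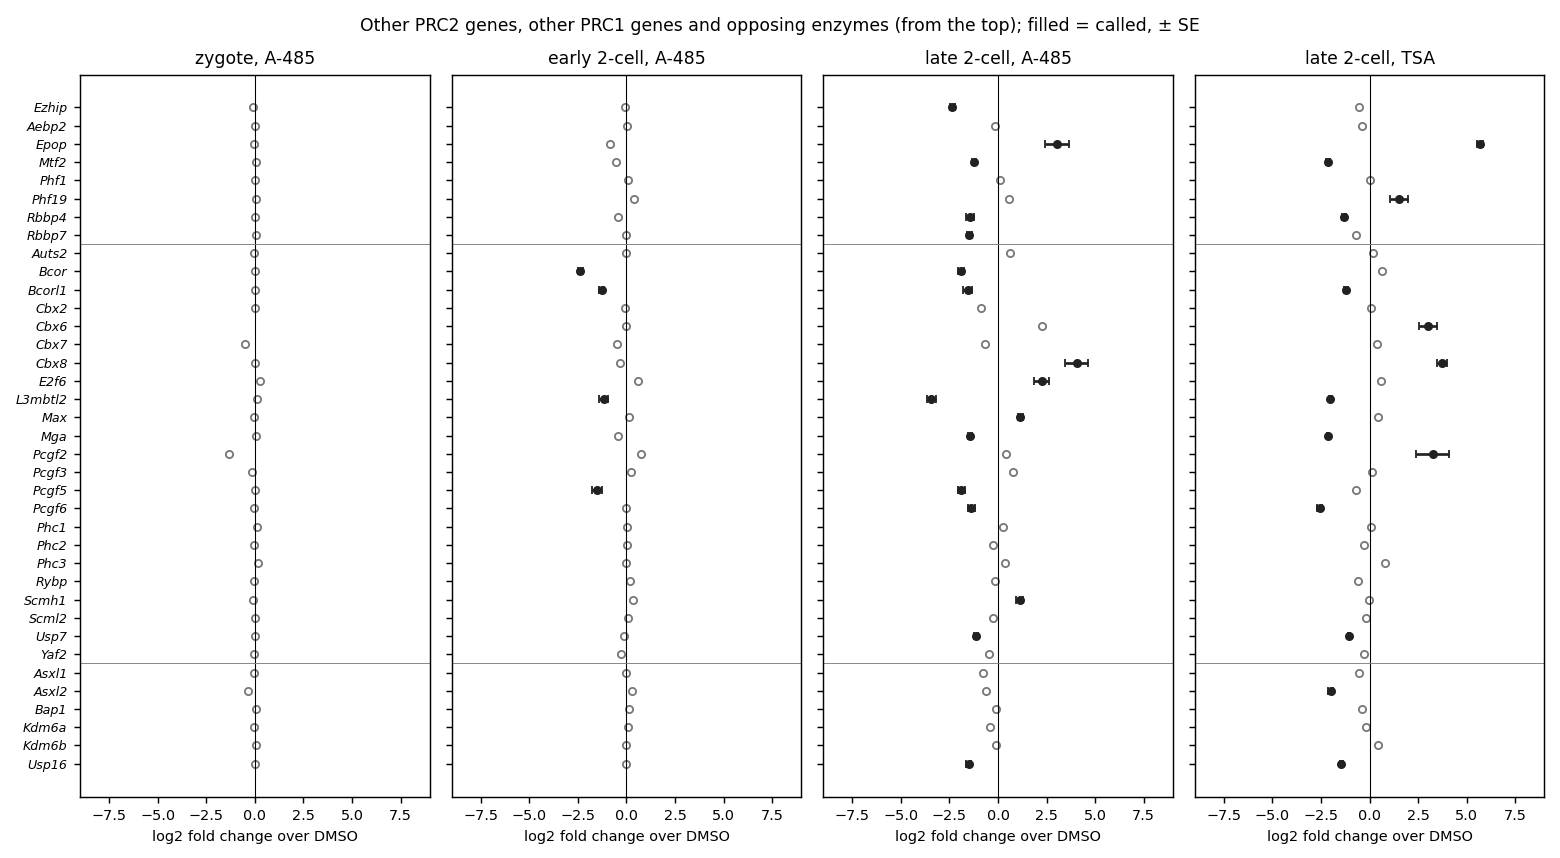
Log2 fold change (x axis) from edgeR of 37 other Polycomb genes and opposing enzymes (y axis) with A-485 or TSA against DMSO, for 4 comparisons. Filled points with bars of ± 1 standard error passed all 3 criteria of a call. Epop lies at 3.02 with A-485 and 5.67 with TSA in late 2-cell embryos, and L3mbtl2 at -3.43 with A-485.

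Across the 8 group means the members fell into opposed courses. On log2(FPKM + 1), Eed and Jarid2 were the most alike pair of members (Pearson r = 0.990, n = 8 groups), Kdm2b was most like Jarid2 (0.986) among members, and Bmi1 and Pcgf1 were the most opposed (-0.980). Suz12 followed Bmi1 (0.893) rather than its PRC2 partners. Among 8800 genes with a mean of at least 5 FPKM, the gene with the course closest to each member was Naa35 for Ezh2 (0.995), Srrm1 for Ezh1 (0.991), Sap18b for Eed (0.987), Plekha8 for Suz12 (0.990), Trim13 for Jarid2 (0.993), Gm25835 for Rnf2 (0.985), E2f4 for Bmi1 (0.995), Champ1 for Pcgf1 (0.996) and Hsd17b12 for Kdm2b (0.996). The groups share stages and libraries, so these coefficients are descriptions over 8 points. Each closest gene is the highest of 8800 over those points, so its coefficient is high in part by selection.

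Open chromatin was measured by ATAC-seq at the late 1-cell and the early 2-cell stage, each with DMSO or A-485, with 1 list of peaks per group over both replicates, which leaves no replicate error and allows no test. A peak lay within 1 kb of an annotated start of 7 of the 10 members in late 1-cell DMSO embryos, 6 in late 1-cell A-485, 8 in early 2-cell DMSO and 6 in early 2-cell A-485 embryos. The shares of 8857 genes with a mean of at least 5 FPKM were 42.3%, 41.7%, 55.1% and 62.2%. The lists held 10214, 7094, 27693 and 13712 peaks.

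Ezh1, Ezh2, Eed, Suz12 and Rnf2 had a peak at their main start in all 4 lists, and Ring1, at chr17:34020792-34024680, had none in any. At Ezh1 the fold enrichment of the peak was 6.98 and 7.72 in late 1-cell DMSO and A-485 embryos, and 15.3 and 11.2 in early 2-cell ones. At Ezh2, whose start is printed above, it was 9.12 and 8.45, then 13.0 and 12.6. The medians of the lists were 6.87, 6.86, 8.12 and 7.62. Both PRC2 catalytic genes were thus above the median peak of each list at both stages.

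The other members had peaks in some lists only. Jarid2, with the start printed above, had 2 peaks, at chr13:44729471-44729860 (fold enrichment 4.33) and chr13:44730015-44730877 (6.05), both in early 2-cell DMSO embryos and none with A-485. In early 2-cell DMSO embryos Kdm2b had a peak within 1 kb of an internal start, chr5:122954061-122954351 (9.72). Its summit lay 1073 bases from that start, and no part of it within 500 bases. In early 2-cell A-485 embryos Kdm2b had another peak at the printed start, chr5:122989154-122989449 (6.82). Kdm2b was therefore counted at both treatments by peaks near different starts of a gene that spans chr5:122870665-122989823, and with DMSO only at the 1 kb distance. Bmi1, the most abundant member, had a single peak, chr2:18680908-18681311 (8.14), at an internal start in late 1-cell DMSO embryos and none at its printed start. Pcgf1 had peaks in both late 1-cell lists and, in early 2-cell DMSO embryos, a peak over 500 bases from its start. With the 7094 strongest peaks of each list, the same 5 members remained in early 2-cell DMSO and A-485 embryos, those with a peak in all lists. Within 500 bases of a start, 6 members had a peak in early 2-cell DMSO embryos and 6 in early 2-cell A-485 embryos.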

How the data were processed

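For RNA-seq, the authors trimmed reads with Trimmomatic 0.39, aligned them to GRCm38 with STAR 2.7.8a and quantified genes with RSEM 1.3.1. The deposited values are, per library, expected counts (not normalized), FPKM, effective lengths and posterior standard deviations of the counts. FPKM are scaled to mapped fragments, so they shift when a few genes take more of a library. For ATAC-seq, the authors ran the ENCODE pipeline and deposited 1 list of reproducible peaks per group, with the peak caller's score, a signal column that is a ratio (fold enrichment), and −log10 q-values; lines with the same position were joined, and the q-values ranked the strongest peaks. Expected counts were rounded and tested with edgeR 4.0.16 (TMM, quasi-likelihood F test, Benjamini-Hochberg adjustment; genes needed 10 counts in sum across the compared libraries); DESeq2 1.42.0 was an alternative. A call needed adjusted p under 0.05, a fold of at least 2 and a mean of at least 1 FPKM in either group; interactions needed only the first. The script was tested on simulated data. In counts simulated for the late 2-cell A-485 comparison, edgeR at adjusted p under 0.05 recovered 39 of 100 2-fold changes. It recovered 81 of 100 4-fold changes, and 8 of its 128 calls were false. Only 200 genes were changed in that simulation, whereas 8538 genes had an adjusted p under 0.05 (edgeR) in the real comparison. The recovery therefore does not carry over to the 9 expressed members, whose standard errors there were 0.0823 to 0.242. A member whose true change lies near 2-fold can still miss the fold required. Depth was 13206163 to 32585987 counts per library, and with 2 libraries a group only differences beyond their spread can be called. Positions and symbols came from GENCODE M21 on GRCm38, by which 55144 of the 55385 listed genes were matched; promoters came from RefSeq GRCm38.p6. All 10 members were tested in every comparison; the text gives those called and others by value or range. Of 38 other Polycomb genes, the 3 called with the largest change are named, except 1 gene that is not reported here, and any further name was chosen after its values were seen. The members and lists were chosen with earlier results of these data known. Alternatives tried were other scalings, filters, samples in the fit, controls, cutoffs, DESeq2, a replicate block, each library left out and, chosen after seeing the data, the effective length as an offset. H3K27ac CUT&RUN was not analysed here.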

Additional observations from a re-analysis of the deposited data

Results flagged for a closer look

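The members named here were singled out because their response differed between 2 settings by a test of the difference itself, the interaction term of edgeR over 8 libraries. The effect of A-485 at late 2-cell differed from that at early 2-cell by -1.56 for Ezh1, -1.52 for Kdm2b, -0.85 for Ezh2, -0.78 for Jarid2, -0.53 for Eed and 0.35 for Bmi1 on the log2 scale. The effect of TSA at late 2-cell differed from that of A-485 at the same stage by 0.79 for Ezh1, 0.62 for Jarid2, 0.55 for Eed and -0.35 for Bmi1. The first comparison puts embryos taken after the exposure had ended beside embryos of an earlier stage, and the second puts different doses, windows and experiments side by side. Ezh1, Ezh2, Jarid2 and Kdm2b differed between stages under each of 16 alternatives, whereas Eed differed between agents in only 4 of 16.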

How the results depend on the processing

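Over all members and comparisons, 1280 alternative values kept direction and side of the threshold, 62 lost a call, 48 gained one and 90 changed sign. Of the 90, 85 were without a call in either setting, and for 5 of these the adjusted p of the value reported was under 0.05: Bmi1 at late 2-cell A-485 (-0.58), Suz12 (-0.51) and Rnf2 (-0.67) from zygote to early 2-cell, all with mitochondrial scaling, Rnf2 under TSA with library totals (0.06), and Rnf2 from early to late 2-cell with the length offset (0.01). The other 5 involved a call and all came with scaling to mitochondrially encoded genes, which moves every gene of a library by the same amount: Bmi1 from zygote to early 2-cell (-0.19), Bmi1 (-0.69) and Rnf2 (-0.90) when the A-485 effect at late 2-cell is set against that at early 2-cell, and Suz12 (0.52) and Bmi1 (0.34) in the difference between TSA and A-485. Over all genes, mitochondrial scaling changed the split of calls to 1118 higher and 6287 lower from 2532 and 2489 for late against early 2-cell, to 6639 and 412 from 3380 and 1218 for TSA against A-485, to 122 and 1775 from 231 and 1070 for early 2-cell against zygote, to 326 and 88 from 245 and 28 between control groups, and to 14 and 14 from 1 and 12 in zygotes. For counts of called members, late 2-cell A-485 gave 2 with library totals, and 3 to 5 when libraries were left out. TSA gave 0 with library totals, 1 with all 16 libraries in one fit, 8 with no cutoff on fold, and 2 to 3 when libraries were left out. From zygote to early 2-cell the count was 6 with mitochondrial scaling, 8 with no cutoff on fold, and 3 to 3 without single libraries. From early to late 2-cell it was 2 with DESeq2, RLE or mitochondrial scaling, 4 with no cutoff on fold, 0 with the effective length as an offset, and 1 to 2 without single libraries. The difference between agents gave 2 with the length offset and 0 to 5 without single libraries, and that between late and early 2-cell gave 5 to 7. With equal numbers of peaks, 5 members had a peak in early 2-cell DMSO embryos and 5 in early 2-cell A-485 embryos. A replicate block raised the count from early to late 2-cell to 2 and moved no other count by over 1.5 times. No label says that the numbers mark shared batches, the correlations of same-numbered deviations were -0.067 to 0.228, and these samples share only a number. Except where stated, the cause of these changes was not tested.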
